A study of Mus musculus with 64 samples.

Results

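Loss of both Roquin genes was examined at 1 h of restimulation through CD3 and CD28 by comparing the 4 libraries labelled DKO_1h with the 4 libraries labelled WT_1h. These are 8 of the 64 libraries of the series, chosen by the genotype and time in the labels and not by any measured value. The RNA came from CD4 T cells taken from the spleens of C57BL/6J mice. DKO cells were Rc3h1/2 fl/fl with Cd4-Cre-ERt2, a Cre recombinase made in Cd4-expressing cells and active only after tamoxifen, and WT cells carried that Cre with no floxed gene. KO cells, used for one comparison, were Zc3h12a fl/fl with the same Cre, and TKO cells carried floxed alleles of all 3 genes. Cells of every genotype were given 4´-OH-tamoxifen, stimulated for 40 h under Th1 conditions, kept for 2 days with IL-2, and then restimulated or left as they were (0 h). Tamoxifen, Cre and the earlier activation were therefore shared by both groups. Whether each of the 4 came from its own mouse is not in the labels, so a p-value here reflects library-to-library spread that may be technical.

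The Rc3h1 and Rc3h2 genes encode Roquin-1 and Roquin-2, RNA-binding proteins that recognise short stem-loops in the 3′ untranslated regions (UTRs) of mRNAs and recruit deadenylation and decapping enzymes. Regnase-1, encoded by Zc3h12a, is an endonuclease that acts on many of the same mRNAs. In T cells their targets encode costimulatory receptors, cytokines and transcription regulators, and both proteins are known to be cleaved by the protease MALT1 after antigen receptor signalling. The comparison at 1 h asks which transcripts differed without Roquin early in the response to restimulation.

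The libraries held 5369873 to 11314436 reads, against 5369873 to 11666589 over the whole series. The 13 T cell receptor and signalling markers of CD4 T cells summed to 3291 to 3704 CPM (reads scaled by library total) in WT_1h and 3290 to 3965 in DKO_1h. Cd4 itself was read at 119 to 185 CPM in WT_1h and 142 to 213 CPM in DKO_1h. The 9 B cell markers in the table summed to 105 to 166 CPM in WT_1h and 159 to 188 CPM in DKO_1h. NK cell markers summed to 10.9 to 32.3 CPM in WT_1h and 6.70 to 12.6 in DKO_1h, and myeloid and dendritic cell markers to 36.6 to 42.5 and 40.7 to 52.4. Neutrophil and erythroid or platelet markers summed to at most 4.6 CPM in any of the 8 libraries. Cd8a had 179 reads over the WT_1h libraries and 33 over the DKO_1h libraries. In such bulk samples, fewer cells of a type and less RNA per cell cannot be told apart. Levels below are the authors' normalized counts after a common rescaling, listed library by library in the order of the deposited lists. Changes are log2 differences ± SE (n = 4 libraries per group) on the log2(value + 1) scale, with adjusted p from limma over 16140 genes, and a gene is called at an adjusted p under 0.05. The SE is the moderated one of a model of all 64 libraries, and so does not describe the spread of the groups compared alone.

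The targeted genes were read first, as a check of the labels. Rc3h1 (ENSMUSG00000040423) stood at 1028, 943, 914 and 890 normalized counts in WT_1h and at 614, 682, 603 and 618 in DKO_1h. All DKO_1h libraries lay below all WT_1h libraries, with a log2 change of -0.58 ± 0.10 (adjusted p = 5e-05). Rc3h2 (ENSMUSG00000075376) stood at 820, 867, 671 and 632 in WT_1h and at 1011, 937, 937 and 876 in DKO_1h, so that every DKO_1h library lay above every WT_1h library. Its log2 change of 0.34 ± 0.12 did not pass (adjusted p = 0.06), and was called higher under 4 of 21 alternatives (lowest adjusted p 0.025), so its whole-gene count did not fall with the deletion. Which exons were floxed is not stated in the labels, and a whole-gene count still holds reads from exons that were not deleted. Zc3h12a, intact in these cells, was 1227, 1068, 954 and 932 in WT_1h and 1633, 1180, 1275 and 1293 in DKO_1h, overlapping ranges with a log2 change of 0.36 ± 0.19 (adjusted p = 0.24).

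Loss of Roquin raised 962 genes and lowered 363 of the 16140 tested (8.21% called), so 72.6% of the calls were rises. Of the genes called, 376 rose and 118 fell at least 2-fold, and 94 rose and 17 fell at least 4-fold. The median log2 change was 0.83 among the genes that rose and -0.70 among those that fell, against -0.01 over all genes tested. The 4 libraries of DKO_1h lay above all 4 of WT_1h for 8.85% of genes and below them for 3.88%. The split depended on scaling: with the values as deposited 727 genes rose and 687 fell, and with scaling to total reads 706 rose and 446 fell. With only the 8 libraries compared in the model 530 rose and 181 fell, and without the second DKO_1h library 640 rose and 230 fell. Under all 5 scalings tried, 661 genes were called higher and 339 lower. Protein-coding genes gave 921 of the rises and 341 of the falls.

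**Figure D1:**
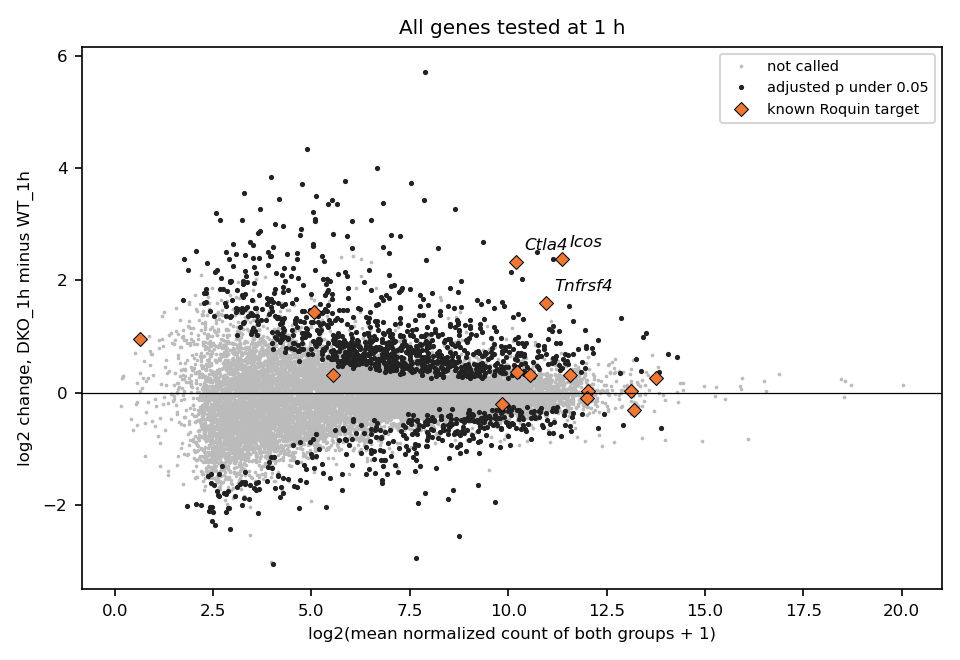
Each point is 1 of the 16140 genes tested, by its mean level in both groups (x, log2 of normalized counts + 1) and its log2 change in DKO_1h against WT_1h (y). Black points passed an adjusted p of 0.05. Diamonds are the 15 known Roquin targets, of which the 3 named ones were called, while the other 12 were not.

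Among genes long described as bound and repressed by Roquin, 3 of 15 were called higher at 1 h and 0 lower, where 5.96% of all genes were called higher. They were the genes of 3 receptors: Icos (inducible costimulator), Ctla4 (an inhibitory receptor that competes with CD28) and Tnfrsf4 (OX40). Icos was 642, 1155, 788 and 823 normalized counts in WT_1h and 3368, 5366, 4510 and 4309 in DKO_1h. Every DKO_1h library was higher than every WT_1h library, by 2.38 ± 0.40 on the log2 scale (adjusted p = 3.6e-05). Ctla4 went from 409, 446, 311 and 306 to 1997, 3264, 1363 and 1256, again with no overlap (log2 change 2.33 ± 0.42, adjusted p = 0.00012). Tnfrsf4 went from 773, 1309, 904 and 954 to 2482, 4146, 2631 and 2666 (log2 change 1.59 ± 0.30, adjusted p = 0.00021). The DKO_1h library at 4146 stood apart from its group, and the groups did not overlap. These 3 calls held under every scaling, filter and omission of a library that was tried.

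The other 12 targets, Zc3h12a among them, did not pass the test at 1 h. The median log2 change of the list was 0.31 at 1 h, against -0.01 over all genes tested. Tnf, the cytokine gene in which a stem-loop bound by Roquin was first mapped, was 12926, 10382, 9759 and 8384 in WT_1h and 9889, 6475, 8276 and 8857 in DKO_1h. These ranges overlapped, and the log2 change was -0.31 ± 0.34 (adjusted p = 0.62). Nfkbid and Nfkbiz, which encode nuclear regulators of NF-kB, had log2 changes of 0.04 ± 0.28 and -0.09 ± 0.21 (adjusted p = 0.95 and 0.84). Irf4, a transcription factor gene of activated T cells, had a log2 change of 0.27 ± 0.21 (adjusted p = 0.45). Cd28, Tnfaip3, Ier3 and Rel had log2 changes of 0.31, 0.32, 0.32 and 0.04 (adjusted p from 0.54 to 0.92). Il6 had 0 reads in WT_1h and 3 in DKO_1h. Ptgs2, the gene of cyclooxygenase-2, was 22.5, 22.6, 9.0 and 8.64 in WT_1h and 78.5, 75.7, 22.2 and 19.1 in DKO_1h, where 2 libraries of each group were high and the ranges overlapped (log2 change 1.43 ± 0.61, adjusted p = 0.14).

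One kind of stem-loop bound by Roquin, the constitutive decay element, has a core of 9 bases that folds as a short stem with a loop of 3. Its forms can be searched for as letters. The 8 forms searched on the sense strand of annotated 3′ UTRs (GRCm38, GENCODE vM21) were TTCTGTGAA, TTCTGCGAA, TTCTATGAA, TTCTACGAA, TTCCGTGAA, TTCCGCGAA, TTCCATGAA and TTCCACGAA. The sites below are shown because they are in targets that did and did not rise at 1 h, and in genes that rose without being on the target list. Each is read 5′ to 3′ on the strand of the gene, with the core in capitals and 6 bases on each side. The positions are chr1:60999483-60999503 (plus strand) for Icos, chr1:60915762-60915782 (plus) for Ctla4, chr17:35199582-35199602 (minus) for Tnf and chr16:55812611-55812631 (minus) for Nfkbiz. Those of the genes outside the list are chr4:115093825-115093845 (plus) for Pdzk1ip1, chr9:7282211-7282231 (plus) for Mmp13, chr1:171950209-171950229 (plus) for Slamf6 and chr2:152781955-152781975 (minus) for Bcl2l1.
Icos: caaaatTTCTGTGAAataaaa
Ctla4: aatattTTCCATGAAaatgca
Tnf: catgttTTCTGTGAAaacgga
Nfkbiz: agttgtTTCTATGAAacaaac
Pdzk1ip1: tcttatTTCTGTGAAataaag
Mmp13: gcttagTTCTGTGAAcgagct
Slamf6: tgacagTTCCATGAAtgtgtt
Bcl2l1: ccacacTTCTGTGAAagccac

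The bases flanking the core can extend the stem. The flanks of Ctla4, Tnf, Nfkbiz and Pdzk1ip1 allow 4 further consecutive pairs next to the core (Watson-Crick or G-U), those of Icos 2, those of Mmp13 and Slamf6 1, and those of Bcl2l1 0. A core was present in the 3′ UTR of 6 of the 15 known targets. It was present in 68 of 911 genes called higher (7.46%), in 24 of 337 called lower (7.12%) and in 893 of 13569 tested genes with an annotated 3′ UTR (6.58%). Median lengths of the longest 3′ UTR were 1273, 1321 and 1179 bases in these 3 sets. With at least 2 further pairs, a condition chosen after the data were seen, the shares were 2.63%, 1.78% and 1.44%. The median log2 change of genes with a core was -0.03. A match is a run of letters and was not tested as a binding site. Stem-loops of other forms were not searched for, so these shares do not cover all Roquin sites. Tnfrsf4, a target called higher at 1 h, held 0 cores.

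The largest rises started from low levels in control cells. The rule that named them required all DKO_1h libraries above all WT_1h libraries, as was so for 8.85% of all genes. Nos2 (ENSMUSG00000020826), the gene of inducible nitric oxide synthase, was 1.84, 9.31, 6.45 and 7.47 normalized counts in WT_1h and 342, 1105, 275 and 135 in DKO_1h. Its log2 change of 5.72 ± 0.70 (adjusted p = 5.1e-08) was the largest among genes named by the rule. Pdzk1ip1 (ENSMUSG00000028716), which encodes a small membrane protein, was 1.84, 3.95, 2.55 and 0 in WT_1h and 30.2, 66.5, 64.6 and 61.1 in DKO_1h. One DKO_1h library was below the other 3 (log2 change 4.35 ± 0.40, adjusted p = 2.9e-11). Ebi3 (ENSMUSG00000003206), the subunit shared by the cytokines IL-27 and IL-35, was 10.8, 14.7, 11.5 and 7.47 in WT_1h and 189, 236, 177 and 160 in DKO_1h. The 4 DKO_1h values were close together, at a log2 change of 4.00 ± 0.41 (adjusted p = 2e-10). Tnfrsf8, which encodes the receptor CD30, was 26.1, 42.6, 20.5 and 44.7 in WT_1h and 115, 735, 469 and 401 in DKO_1h (log2 change 3.44 ± 0.73, adjusted p = 0.0012). Its call was lost when limma weighted the recovered reads by voom (adjusted p = 0.054).

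Several of the genes with the largest rises encode proteins better known outside T cells. Prickle1, a planar cell polarity gene, was 61.3, 105, 56.5 and 68.2 in WT_1h and 443, 622, 966 and 854 in DKO_1h, a log2 change of 3.27 ± 0.23 (adjusted p = 6.8e-16). Mmp13, the gene of collagenase 3, was 1.84, 6.68, 3.82 and 6.21 in WT_1h and 30.2, 120, 60.4 and 24.2 in DKO_1h. The DKO_1h values spread widely (log2 change 3.23 ± 0.55, adjusted p = 3.5e-05), and the groups did not overlap, as the rule for naming required. Ntng2, which encodes netrin-G2, had closely grouped values of 204, 169, 166 and 164 in WT_1h and 1266, 935, 1119 and 1210 in DKO_1h (log2 change 2.68 ± 0.17, adjusted p = 3.9e-18). Pkhd1l1 (3.08), Zcchc18 (3.06), the calpain gene Capn3 (2.81), the netrin receptor gene Unc5b (2.80) and Ankrd37 (2.79) also rose, as log2 changes, with adjusted p from 3.9e-11 to 0.00076. Ankrd37 overlaps Ufsp2 on the opposite strand, Capn3 overlaps Ganc, and Ntng2 overlaps 6530402F18Rik, and reads of such pairs could have been shared.

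The largest falls were in interferon-induced membrane proteins and in cytokine genes. Ifitm3 (ENSMUSG00000025492), an antiviral membrane protein gene, was 500, 265, 293 and 359 normalized counts in WT_1h and 36.3, 36.5, 44.5 and 62.4 in DKO_1h. All DKO_1h libraries were far below all WT_1h libraries, where the rule for naming required no overlap (log2 change -2.94 ± 0.30, adjusted p = 3.5e-10). Its neighbours in the family fell too: Ifitm1 by 2.03 ± 0.37 and Ifitm2 by 1.55 ± 0.31 on the log2 scale (adjusted p = 0.0001 and 0.0004). Of the 25 IFITM and interferon-stimulated genes 4 fell, the last being Ifit2 by 0.62, and 1 rose, the GTPase gene Igtp (log2 change 0.67, adjusted p = 0.024). Over all genes tested, 2.25% fell and 5.96% rose, so the share of rises was near the background. The list's median log2 change was -0.18, and its 3 Ifitm genes had the largest falls. Other large falls were in Pydc3 (-1.97), the guanine exchange factor gene Dock4 (-1.79), the chemokine receptor gene Ccr2 (-1.73), the lysosomal channel gene Mcoln2 (-1.73) and Nav1 (-1.60), with adjusted p from 8.5e-09 to 0.002.

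**Figure D2:**
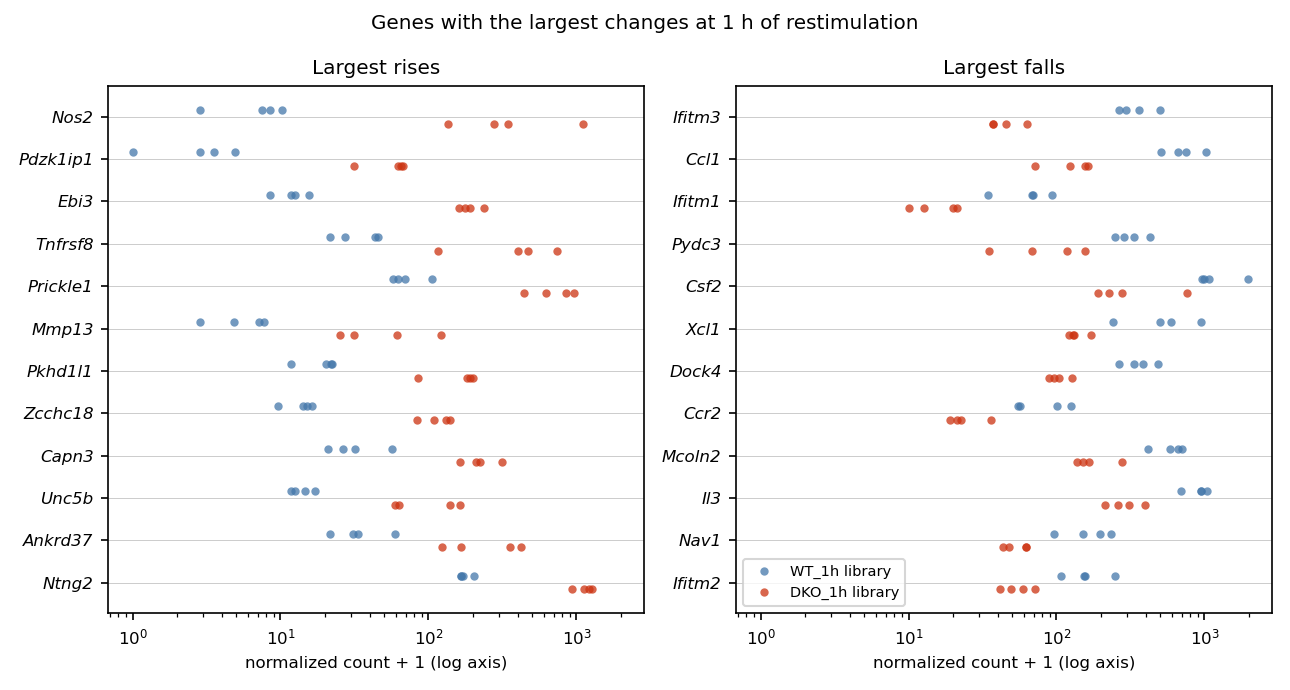
Each point is 1 library, at its normalized count + 1 on a log axis, for the 12 largest rises (left) and the 12 largest falls (right) chosen by the naming rule. Blue points are WT_1h and red points DKO_1h, 4 each, and the 2 colours do not overlap for any gene, which the rule required.

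Of the 34 cytokine and chemokine genes, 3 rose, 4 fell and 27 were not called, against 5.96% and 2.25% over all genes, so the share of rises was near the background. The median log2 change was 0.28. The rises were Ebi3, Tnfsf8 (CD30 ligand, log2 change 1.07 ± 0.30, adjusted p = 0.016) and Il24 (1.88 ± 0.53, adjusted p = 0.017). The call of Tnfsf8 was lost under 4 alternatives, each without 1 library (the first DKO_1h, or the first, the third or the fourth WT_1h, adjusted p up to 0.071). That of Il24 was lost under 3 (voom, without the second DKO_1h or the fourth WT_1h library, adjusted p up to 0.45). The falls were in genes that are strongly induced on restimulation. Ccl1, a chemokine gene, was 507, 661, 1027 and 749 in WT_1h and 70.5, 154, 123 and 163 in DKO_1h (log2 change -2.54 ± 0.41, adjusted p = 1.9e-05). Csf2, the gene of GM-CSF, was 991, 1957, 1075 and 963 in WT_1h and 278, 760, 189 and 225 in DKO_1h (log2 change -1.95 ± 0.59, adjusted p = 0.03). The second library of each list was the high one in both groups, and the call was lost without any 1 of 5 libraries, namely the first, the third and the fourth of DKO_1h and the second and the third of WT_1h (adjusted p up to 0.09), and with list place as a block among the 1 h libraries (adjusted p = 0.061). Xcl1, the chemokine lymphotactin, was 941, 239, 589 and 497 in WT_1h and 121, 129, 130 and 169 in DKO_1h (log2 change -1.89 ± 0.49, adjusted p = 0.0085). Il3 went from 692, 952, 1036 and 944 to 260, 306, 211 and 394 (log2 change -1.65 ± 0.52, adjusted p = 0.036, and up to 0.093 under the alternatives). All 4 genes were lower in every DKO_1h library than in any WT_1h library, as the rule for naming required. Of all genes, 3.88% lay wholly below WT_1h.

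Costimulatory receptor genes gave 5 rises and 1 fall among 13 members, at a median log2 change of 0.60. Over all genes tested, 5.96% rose and 2.25% fell. Besides Icos, Tnfrsf4 and Tnfrsf8, the rises were Slamf6 and Tnfrsf25. Slamf6, which encodes the receptor Ly108, was 276, 800, 555 and 496 in WT_1h and 2094, 2782, 3437 and 3118 in DKO_1h. Every DKO_1h library was far above the highest WT_1h library (log2 change 2.50 ± 0.26, adjusted p = 3.3e-10). Tnfrsf25, the gene of death receptor 3, was 64.9, 51.8, 60.5 and 73.2 in WT_1h and 109, 78.2, 162 and 149 in DKO_1h (log2 change 0.94 ± 0.20, adjusted p = 0.00083). The fall was Cd27 (log2 change -0.63, adjusted p = 0.041). Inhibitory receptor genes gave 3 rises and 1 fall among 11 tested, to be read against the same shares. Cd200, which encodes the ligand of an inhibitory receptor, was 76.6, 172, 84.8 and 71.9 in WT_1h and 459, 394, 246 and 233 in DKO_1h (log2 change 1.74 ± 0.31, adjusted p = 9.9e-05). Ctla4 and Btla (0.66 ± 0.18, adjusted p = 0.012) were the other rises and Lair1, a collagen receptor gene, the fall (-0.86 ± 0.24, adjusted p = 0.014).

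Genes of follicular helper T cells (Tfh), which help B cells in germinal centres, had the largest share of rises among the 20 lists of pathways and programmes. Of 12 tested, 6 rose, 0 fell and all 12 had a log2 change above 0, at a median of 1.20. Over all genes tested, 5.96% rose, 2.25% fell and 7817 of 16140 had a log2 change above 0. Icos, Slamf6, Sh2d1a, Tox2, Tcf7 and Btla were the ones called. Sh2d1a, the adaptor gene SAP that couples Slamf receptors to signalling, was 349, 575, 318 and 320 in WT_1h and 1063, 717, 980 and 1062 in DKO_1h (log2 change 1.32 ± 0.18, adjusted p = 4.8e-07). Tox2, a nuclear factor gene, was 11.7, 29.3, 15.5 and 16.1 in WT_1h and 28.2, 80.8, 173 and 98.0 in DKO_1h, where the lowest DKO_1h library lay within the WT_1h range (log2 change 2.14 ± 0.51, adjusted p = 0.0038). Tcf7, the gene of TCF-1, rose by 0.88 ± 0.22 on the log2 scale (adjusted p = 0.0064). Several of these genes are also on the receptor and target lists, so these counts overlap.

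Other helper programmes are given beside the 5.96% of all genes that rose and the 2.25% that fell. Th17 genes gave 3 rises of 10, namely Stat3 (0.79 ± 0.12, adjusted p = 1.1e-05), the chemokine receptor gene Ccr6 (2.40 ± 0.54, adjusted p = 0.0019, at 1.26 to 6.45 counts in WT_1h and 8.95 to 36.5 in DKO_1h) and Ahr (0.92 ± 0.30, adjusted p = 0.046, lost under 14 alternatives). Th1 genes gave 1 rise of 16, the interleukin-12 receptor gene Il12rb1 (0.85 ± 0.19, adjusted p = 0.0021). Th2 genes gave 1 rise of 10, Ccr4 (0.91 ± 0.22, adjusted p = 0.0049). Treg genes gave 2 rises (Ctla4 and Ikzf2) and 2 falls (Capg and Lrrc32) of 10. Ikzf2, which encodes Helios, was 562, 311, 228 and 300 in WT_1h and 1357, 1419, 692 and 831 in DKO_1h (log2 change 1.63 ± 0.33, adjusted p = 0.00064). Batf, a partner of AP-1 in activated T cells, was 287, 309, 273 and 222 in WT_1h and 574, 584, 593 and 567 in DKO_1h (log2 change 1.09 ± 0.16, adjusted p = 1.8e-06), a narrow range in each group. In the naive and quiescence list 4 of 15 rose, among them Foxp1 (0.60 ± 0.14) and Tcf7, and 2 fell, Ccr2 and Klf3 (-1.20 ± 0.26).

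The immediate early and NF-kB lists hold genes that control cells induce strongly by this time. Of 25 immediate early genes 1 rose, the phosphatase gene Dusp4, and 0 fell, against 5.96% and 2.25% over all genes. Dusp4 was 507, 633, 342 and 355 in WT_1h and 1188, 1529, 1502 and 1249 in DKO_1h (log2 change 1.61 ± 0.31, adjusted p = 0.00032). In control cells the median member of that list had risen by 3.29 on the log2 scale from 0 to 1 h (31.1% of all genes were called in that comparison), and the median difference between DKO_1h and WT_1h was 0.13. Of 22 NF-kB pathway genes 1 rose (Ikbkg, 0.57 ± 0.13, adjusted p = 0.0015, which overlaps the more abundant G6pdx on the opposite strand). The inhibitor gene Nfkbie fell, from 499, 439, 541 and 476 in WT_1h to 326, 209, 239 and 261 in DKO_1h (log2 change -0.93 ± 0.26, adjusted p = 0.015). The median of the NF-kB list was -0.01.

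Cell cycle genes were lower as a list: 10 of 24 fell, 0 rose, and all 24 had a log2 change below 0, at a median of -0.43. Over all genes tested, 2.25% fell and 8323 of 16140 had a log2 change below 0. Mki67, the proliferation marker Ki-67, was 18099, 19577, 17603 and 17905 in WT_1h and 10620, 11695, 10937 and 14705 in DKO_1h (log2 change -0.62 ± 0.11, adjusted p = 8.7e-05). Top2a, the gene of topoisomerase 2 alpha, fell by 0.57 ± 0.14 on the log2 scale (adjusted p = 0.0044), and Mcm3, a replication helicase subunit, by 0.62 ± 0.15 (adjusted p = 0.0049). The fourth DKO_1h library was the one nearest to WT_1h for Mki67 and Mcm3. The number of calls ranged from 9 to 12 over the scalings, was 14 without the fourth DKO_1h library, and was 5 with no filter on low values, and was 4 without the first WT_1h library or when the model used the 8 libraries alone. Without the second DKO_1h or the third WT_1h library it was 6.

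For genes of survival, metabolism and RNA decay the counts stand against 5.96% higher and 2.25% lower over all genes, and those of RNA decay and ribosomal proteins were near these shares. Of 19 survival and death genes 4 rose and 0 fell. Bcl2l1, the anti-apoptotic gene Bcl-xL, was 4922, 3550, 2634 and 2742 in WT_1h and 9054, 5990, 5592 and 5650 in DKO_1h (log2 change 0.94 ± 0.16, adjusted p = 2.4e-05). Bmf, a pro-apoptotic member of the same family, was 11.7, 5.36, 5.18 and 8.64 in WT_1h and 90.6, 69.1, 38.1 and 25.4 in DKO_1h (log2 change 2.61 ± 0.45, adjusted p = 5e-05), so genes of opposite known function rose. Bcl2a1d, which has near-identical copies, rose by 0.82 and Bid, which overlaps the more abundant Bcl2l13, by 0.54 on the log2 scale. Among 28 mRNA decay factors 2 rose besides the fall of Rc3h1. Zc3h12d, which encodes Regnase-4, was 259, 291, 348 and 372 in WT_1h and 791, 1157, 1134 and 752 in DKO_1h (log2 change 1.58 ± 0.28, adjusted p = 7.3e-05), and Edc3, which overlaps Clk3, rose by 0.34 ± 0.10 (adjusted p = 0.028). The calls of Edc3 and Bid were each lost under 9 of 21 alternatives (adjusted p up to 0.16 and 0.14). Of 18 glycolysis genes, Hif1a and Hk2 were called higher (0.70 and 0.82, adjusted p = 0.015 and 0.049), the latter lost under 14 alternatives. Of 23 ribosomal protein genes 1 fell, Rpl8 by 0.39.

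**Figure D3:**
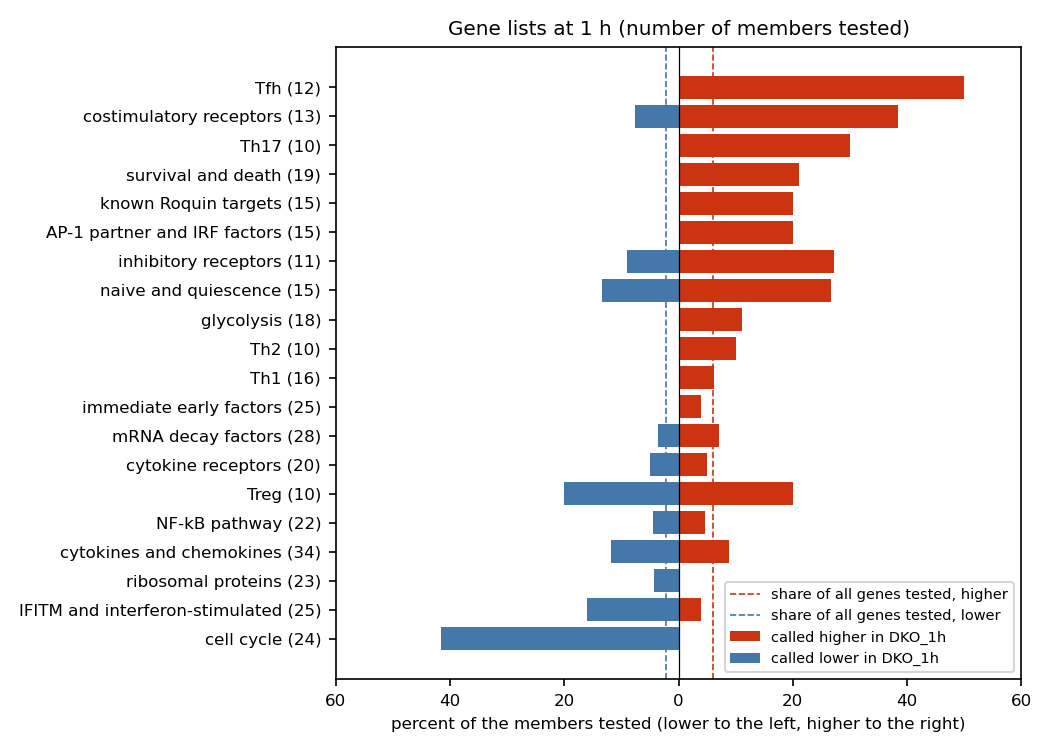
Bars show, for each of 20 gene lists (number of members tested in brackets), the percent of members called higher (red, to the right) and lower (blue, to the left) in DKO_1h against WT_1h. Dashed lines are the shares over all genes tested, 5.96% higher and 2.25% lower. Tfh genes reach farthest to the right and cell cycle genes farthest to the left.

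Among markers of other lymphocytes, 2 of the 7 B cell genes tested, Cd22 and Cd79b, rose from levels near 0, and 0 fell. Over all genes tested, 5.96% rose and 2.25% fell. These 2 genes reached at most 0.43 and 0.66 CPM in WT_1h, below the 1.3 CPM of the filter, and were tested because of other libraries. A fall could hardly have been called for them, so the count is not read as a result. Of the 7, 3 had a log2 change above 0 and 4 below 0, at a median of -0.02. Cd22, an inhibitory receptor gene of B cells, was 0.92, 1.32, 3.82 and 1.26 in WT_1h and 10.04, 33.9, 14.8 and 12.7 in DKO_1h, or 6 and 55 reads in all (log2 change 2.69 ± 0.67, adjusted p = 0.0054). Cd79b, a subunit of the B cell receptor, was 3.59, 2.63, 1.27 and 6.21 in WT_1h and 10.04, 26.0, 9.57 and 8.95 in DKO_1h (log2 change 1.71 ± 0.47, adjusted p = 0.014, lost without the second DKO_1h or the third WT_1h library at adjusted p up to 0.10). Cd79a, the partner subunit, had 9 reads in WT_1h and 16 in DKO_1h. The NK cell granzyme gene Gzma fell from 29 to 6 reads in all (log2 change -1.74 ± 0.50, adjusted p = 0.019). That call was lost under 7 of 20 alternatives, among them voom and the omission of the fourth DKO_1h, the first WT_1h or the third WT_1h library (adjusted p up to 0.12). All 3 NK cell markers tested had log2 changes below 0, at a median of -1.32. Of the 13 CD4 T cell markers, Cd3g and Cd247 rose by 0.44 and 0.35 on the log2 scale (adjusted p = 0.042 and 0.043). Neither of those 2 calls held with the values as deposited.

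The effect at 1 h was then set against the effect of the same genotype in cells left without restimulation, which uses other libraries. At 0 h Roquin loss raised 864 genes (5.35%) and lowered 362 (2.24%), 7.60% in all. The shares called were 7.91% higher and 1.51% lower at 2 h (9.41% in all), and 4.6% higher and 0.688% lower at 4 h (5.29% in all). Of the genes raised at 1 h, 488 were also raised at 0 h, which is 50.7% of the 1 h and 56.5% of the 0 h calls, and 162 of the lowered genes were shared (44.6% and 44.8%). At 2 h 587 of the 1 h rises were called again (61.0% of the 1 h and 46.0% of the 2 h calls), and at 4 h 304 (31.6% and 40.9%). The share of falls called again was smaller, with 103 at 2 h (28.4% and 42.4%) and 37 at 4 h (10.2% and 33.3%). The test of the difference itself found 17 genes (0.105%, of which 0.062% with a higher and 0.0434% with a lower effect at 1 h) that differed between 1 h and 0 h, and 0 (444 and 644 at an unadjusted p under 0.05) between 1 h and 2 h, where the smallest adjusted p was 0.08. With limma voom the counts were 6 and 0. The first count was 4 with only the groups compared in the model, and 421 (410 with a lower effect at 1 h) with the values as deposited.

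For some activation genes the Roquin effect passed the test at 0 h and not at 1 h. Tnfsf14, the gene of the cytokine LIGHT, was 10.7, 10.6, 9.0 and 13.2 normalized counts in WT_0h and 110, 38.9, 141 and 93.5 in DKO_0h, a log2 change of 2.90 (adjusted p = 5.6e-12). At 1 h it was 2506, 3174, 2076 and 1818 in WT_1h and 3757, 2957, 3196 and 3157 in DKO_1h, overlapping ranges with a log2 change of 0.47 ± 0.26 (adjusted p = 0.27). The difference between the effects was -2.42 ± 0.37 (adjusted p = 0.00033, but 0.62 with limma voom). Zc3h12a itself had a Roquin effect of 1.79 at 0 h, from 95.2 ± 10.5 to 330 ± 25.4 (SD, n = 4), and of 0.36 at 1 h (difference -1.42 ± 0.27, adjusted p = 0.0064). The effects at 0 h and 1 h also differed for the kinase gene Fes (1.94 and -0.18, adjusted p of the difference 0.019), the nuclear receptor gene Nr4a3 (1.69 and 0.11, adjusted p = 0.036) and Nfkbia, the gene of the main NF-kB inhibitor (0.96 and -0.04, adjusted p = 0.026). Zfp275 changed sign, from 0.53 to -0.48 (adjusted p = 0.002). Each of these genes rose from 0 to 1 h in control cells, by 1.36 (Zfp275) to 9.68 (Nr4a3) on the log2 scale. Of the 15 known targets, 8 were called higher at 0 h and 3 at 1 h. Nfkbid, Nfkbiz, Irf4 and Rel were among those called at 0 h alone (1.73, 1.04, 1.14 and 0.54), but for these the difference between the times did not pass the test (adjusted p from 0.057 to 1.0).

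For other genes the effect was larger at 1 h. Prickle1 was 112, 102, 82.1 and 141 in WT_0h and 179, 213, 298 and 329 in DKO_0h, and its Roquin effect went from 1.20 at 0 h to 3.27 at 1 h (difference 2.08 ± 0.32, adjusted p = 0.00033). In WT cells it changed by -0.60 on the log2 scale from 0 to 1 h (adjusted p = 0.04), and in DKO cells by 1.48 (adjusted p = 5.1e-07). Ntng2 went from an effect of 1.22 to 2.68 (difference 1.46 ± 0.24, adjusted p = 0.0005). Mmp13 had at most 1.5 normalized counts in WT_0h and 2.19 in DKO_0h, with 3 DKO_0h libraries at 0, and the difference was 3.68 ± 0.77 (adjusted p = 0.022). Mmp13 was near the floor at 0 h, where a Roquin effect was hardly measurable, so its difference is not read as a result. Mapre2, a microtubule plus-end protein gene, was 327, 359, 602 and 371 in WT_0h and 517, 371, 489 and 342 in DKO_0h, an effect of 0.07, against 1.19 at 1 h (adjusted p of the difference 0.013). The ubiquitin ligase gene Rnf145 went from 0.17 to 0.98 and the ciliary gene Cluap1 from 0.04 to 0.72 (adjusted p = 0.026 and 0.033). Cluap1 overlaps Gm20695, which had more reads. Among these 12 differences, those of Ntng2, Zc3h12a and Zfp275 passed under every alternative tried. Those of Nr4a3, Rnf145, Cluap1 and Mmp13 were lost under 16, 13, 12 and 10 of 27 alternatives, those of Nfkbia and Fes under 7 and 6, that of Mapre2 under 2, and those of Prickle1 and Tnfsf14 under 1 each.

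**Figure D4:**
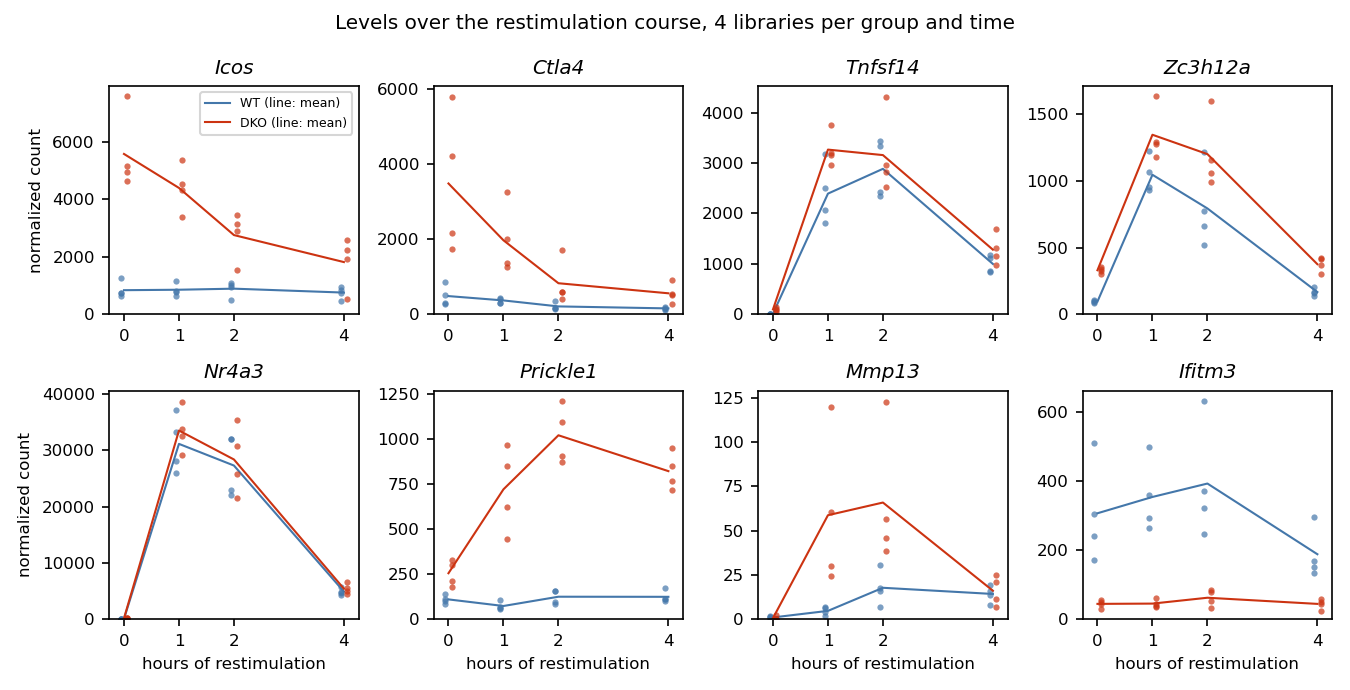
Normalized counts (y, linear from 0) against hours of restimulation (x) for 8 genes, with 1 point per library and lines through the means of WT (blue) and DKO (red), 4 libraries each. Icos, Ctla4 and Ifitm3 differ at 0 h and 1 h, and Tnfsf14, Zc3h12a and Nr4a3 reach overlapping levels at 1 h. Prickle1 differs at 0 h and more widely at 1 h, and Mmp13, near 0 at 0 h, differs at 1 h.

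Loss of Roquin was compared directly with loss of Regnase-1 at 1 h, without the control libraries. Of all genes, 128 were higher (0.793%) and 85 lower (0.527%) in DKO_1h than in KO_1h, 1.32% in all. Lfng, a glycosyltransferase gene that modifies Notch receptors, was 2092, 1387, 2338 and 2663 in DKO_1h and 483, 389, 437 and 378 in KO_1h (log2 difference 2.29 ± 0.20, adjusted p = 3.6e-12). Its WT_1h values of 622, 391, 544 and 490 overlapped the KO_1h range. Unc5b was 139, 163, 62.5 and 58.5 in DKO_1h and 21.0, 9.72, 9.95 and 8.67 in KO_1h (log2 difference 2.94 ± 0.31, adjusted p = 2.1e-09). Nos2 was 342, 1105, 275 and 135 in DKO_1h and 22.5, 33.4, 14.3 and 28.5 in KO_1h (3.81 ± 0.70, adjusted p = 0.00059). Capn3 (2.38 ± 0.27) and Ebi3 (2.38 ± 0.41) were also higher in DKO_1h. In these 5 genes the groups did not overlap, as the rule for naming required, where 4.06% of all genes lay wholly above and 2.96% wholly below KO_1h.

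Prickle1 and Il24 were called higher than WT_1h in both knockouts and were lower in DKO_1h than in KO_1h. Prickle1 was 1568, 2430, 2576 and 2907 in KO_1h, against 443 to 966 in DKO_1h (log2 difference -1.74 ± 0.23, adjusted p = 8.5e-07). Il24 was 153, 197, 192 and 157 in KO_1h, against 32.3, 33.9, 28.6 and 21.7 in DKO_1h (-2.56 ± 0.53, adjusted p = 0.0038). Hrh2, a histamine receptor gene, was 814, 1118, 660 and 819 in KO_1h and 266 to 323 in DKO_1h (-1.51 ± 0.20, adjusted p = 8.5e-07), with no call against WT_1h (0.43, adjusted p = 0.18). Drc1 and Rgmb were also lower in DKO_1h (-1.53 ± 0.29 and -1.55 ± 0.34, adjusted p = 0.0011 and 0.0069). For Drc1, a gene of motile cilia, the WT_1h range of 199.5 to 215 normalized counts lay within the KO_1h range of 191 to 268. Against the shared WT_1h libraries, the log2 changes in DKO_1h and KO_1h were 2.38 and 2.26 for Icos, 2.33 and 1.39 for Ctla4, 1.59 and 0.37 for Tnfrsf4, and 4.35 and 5.67 for Pdzk1ip1. Of these 4 genes the direct difference passed for Tnfrsf4 (adjusted p = 0.019) and not for Icos, Ctla4 or Pdzk1ip1 (adjusted p = 0.96, 0.35 and 0.092).

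A run of related genes on chromosome 5 was higher in DKO_1h. It was chosen after its values were seen, since its members carry predicted or pseudogene names that the naming rule leaves out. Between 10242041 and 11922821 on chromosome 5 (GRCm38), the table holds 15 genes, all tested, from Gm5152 to 4933402N22Rik and including Speer1-ps1, a member of the Speer family. Only 3 of them pass the filter on low values in the WT libraries alone. The other 12 were tested because of groups in which they are high, so how many were called is not read as a result. The fitted log2 changes of the 15 ran from 2.44 (Gm8926) to 3.78 (Gm6455). The genes are close copies, and no label says how reads that match several copies were counted, so the 15 may share reads and were summed. The sum was 91.8, 330.0, 87.3 and 90.7 normalized counts in WT_1h and 1838, 2093, 941 and 760 in DKO_1h. All DKO_1h libraries were above all WT_1h libraries, 1 of which stood apart from the other 3.

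The same sum was 15 to 42.9 in WT_0h and 21.0 to 31.8 in DKO_0h. Single genes had a median of 0 to 10.5 reads per library at 0 h, and 1 of the 15 passes the filter in those 8 libraries alone, so a difference at 0 h was not detectable for most of them at this depth. The sum was 458, 1315, 496 and 1107 in DKO_2h and 44.4, 76.1, 70.1 and 244 in WT_2h, and 68.7 to 133 in DKO_4h and 24.2 to 35.3 in WT_4h. The sum in KO_1h was 415, 1306, 390 and 480, and in TKO_1h it was 857, 761, 1600 and 422, all above the WT_1h libraries. The fitted log2 differences of DKO_1h and KO_1h ran from 1.05 (Gm8879) to 1.55 (4933402N22Rik), and none passed at an adjusted p under 0.05. The mean sum was 1408 in DKO_1h and 648 in KO_1h, with overlapping ranges. For 3 genes of the run, Gm6455, Gm8871 and Speer1-ps1, the fitted Roquin effect at 1 h differed from that at 0 h (adjusted p = 0.016, 0.032 and 0.022). They were near the floor at 0 h, so this is not read as a result.

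**Figure D5:**
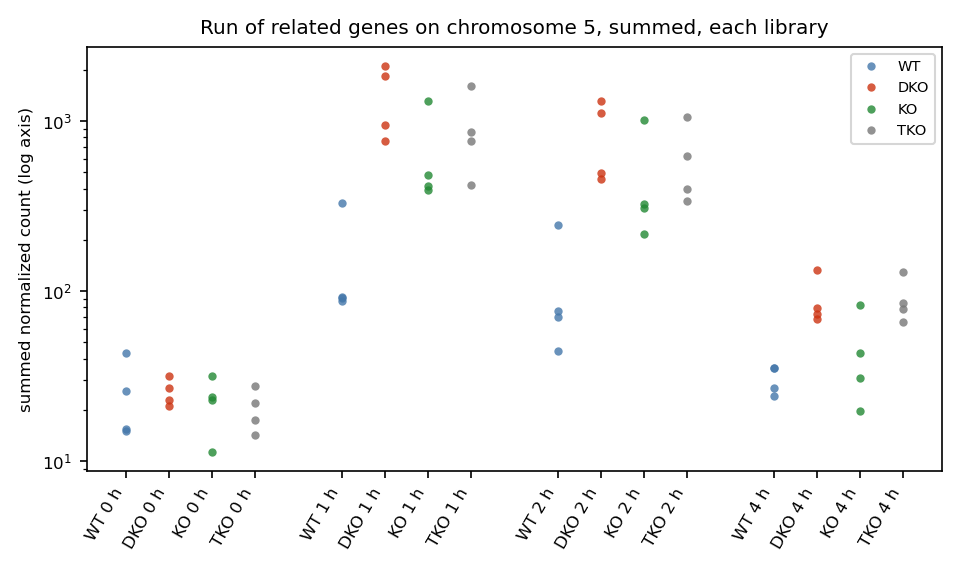
Each point is 1 library, at the sum of normalized counts of the 15 related genes on chromosome 5 (y, log axis), for each genotype and time (x, 4 libraries per group). All groups lie below 50 at 0 h, and at 1 h the DKO libraries lie between 760 and 2093 and the WT libraries between 87.3 and 330.0.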

How the data were processed

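RNA of 64 libraries was sequenced, and the 8 libraries of DKO_1h and WT_1h are the subject here. The build was GRCm38, per the submitters' processing notes. Per the labels' protocols, libraries were made with a NuGEN kit. Aligner, counter, gene annotation and strandedness were not given in the sources used here. The authors deposited, per the file headers, 1 table of 23134 genes with 4 normalized counts per group in a list, a log2 fold change and an adjusted p-value (false discovery rate) per comparison. A list does not show replicate numbers, and libraries are called by their place in it. All low values were whole multiples of 1 step (tolerance 0.1 read), which gave the read totals.

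Genes were kept where at least 4 libraries reached 10 reads at the median depth (1.3 CPM) and reads summed to at least 15. Values were rescaled by trimmed means of M values (trims of 30 and 5 percent), and log2(value + 1) was fitted with limma 3.58.1 in R 4.3.3, 1 mean per group over 64 libraries and 16 groups, with trended, robust moderation, 2-sided tests and Benjamini-Hochberg adjustment. The same model was run on simulated independent counts with the same dispersion for every gene. Real libraries need not behave so, and the simulation is not used as support for the calls. The design foresaw the count models as alternatives. They were not run, because the values sit in lists. Pairs of libraries within a group differed by more than sampling noise (chi-square over degrees of freedom 6.20 to 60.1).

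Named were the 3 targeted genes, the known targets, the 12 largest rises and falls without overlap and with a mean of at least 50, up to 4 called genes per list, the 6 largest differences each way between the 1 h and 0 h effects, and the 5 largest each way against KO_1h. Values of 2 list members are not reported here. The members, the 27 lists and the rule were chosen with earlier results of these data known. The authors' deposited table calls 540 genes for this comparison at a false discovery rate under 0.05, of which 492 were called here in the same direction. Libraries at the same place of the DKO_1h and WT_1h lists deviated together (correlations 0.51, 0.26, 0.22 and 0.31), as a hint from the data and not from the labels. Such correlations ran from -0.24 to 0.43 for DKO_0h and WT_0h and from -0.3 to 0.11 for DKO_2h and WT_2h. Cores were searched in 3′ UTRs built from the coding ends and exons of the annotation.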

Additional observations from a re-analysis of the deposited data

Results flagged for a closer look

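In 12 genes named above, the Roquin effect at 1 h differed from that at 0 h by the test of the difference itself (limma adjusted p as given in the report). As log2 differences, the fitted effect was larger at 1 h for Mmp13 (3.68), Prickle1 (2.08), Ntng2 (1.46), Mapre2 (1.12), Rnf145 (0.82) and Cluap1 (0.68). It was smaller for Tnfsf14 (-2.42), Fes (-2.13), Nr4a3 (-1.58), Zc3h12a (-1.42), Zfp275 (-1.01) and Nfkbia (-1.003). The difference of Mmp13, which was near the floor at 0 h, is not read as a result. Speer1-ps1 (4.03), Gm6455 (3.78) and Gm8871 (3.36) of the chromosome 5 run passed the same test, but are not read as results. They were near the floor at 0 h and may share reads, and the run was chosen after its values were seen. In the 0 h WT and DKO libraries alone, 1 of the 15 genes of the run passes the filter.

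In 25 of 234 groups of 4 libraries, 1 library lay far from the other 3, where chance marks about 1 group in 20 of independent, normally distributed values. These were counts on a linear scale, and the same libraries recurred over many genes, so no excess over chance is read from this number. The first DKO_1h library was low for Pdzk1ip1 (30.2 normalized counts, others 61.1 to 66.5), Pkhd1l1 (84.6, others 182 to 199) and Fes (1101, others 1334 to 1364). It was high for Tnfsf8 (19432, others 13506 to 14262), Btla (3751, others 2558 to 2691) and Bcl2l1 (9054, others 5592 to 5990). The second DKO_1h library was high for Tnfrsf4 (4146, others 2482 to 2666), Csf2 (760, others 189 to 278), Batf3 (52.2, others 8.51 to 14.1) and Cd79b (26.0, others 8.95 to 10.04), and low for Foxp1 (10505, others 12199 to 12257). The third was high for Rnf145 (1368, others 1131 to 1165).

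The first WT_1h library was high for Ier3 (75.7, others 26.0 to 30.8), Ntng2 (204, others 164 to 169) and Nfkbia (3414, others 2631 to 2716). The second was high for Csf2 (1957, others 963 to 1075), Tnfsf8 (13272, others 5649 to 6365), Cd200 (172, others 71.9 to 84.8), Sh2d1a (575, others 318 to 349) and the summed chromosome 5 genes (330.0, others 87.3 to 91.8). The third was high for Cd22 (3.82, others 0.92 to 1.32). In the other groups, 1 library was high for Mmp13 in DKO_0h (2.19, others 0), Mapre2 in WT_0h (602, others 327 to 371), Unc5b in KO_1h (21.0, others 8.67 to 9.95) and the summed chromosome 5 genes in KO_1h (1306, others 390 to 480).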

How the results depend on the processing

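Of the 79 named genes called at 1 h, 55 were called under every alternative and 24 were lost under at least 1. With only the groups compared in the model, 711 genes were called at 1 h (530 higher, 181 lower), 4 between the 1 h and 0 h effects and 78 against KO_1h. With the values as deposited 687 genes were called lower at 1 h, and 421 between the 1 h and 0 h effects, a contrast whose median over all genes then moved from 0.01 to -0.34. With limma voom 6 genes differed between 1 h and 0 h. Between 1 h and 2 h, 1 gene was called with median-of-ratios, upper quartile or total reads scaling and with the stricter filter, against 0. Leaving out 1 library gave 870 to 1518 calls at 1 h (640 to 1015 higher, 209 to 503 lower), 10 to 20 between 1 h and 0 h, 0 to 1 between 1 h and 2 h and 131 to 201 against KO_1h. The counts moved over 1.5 times without the second DKO_1h library (870 at 1 h, 10 against 0 h, 139 against KO_1h), the third DKO_1h (10 against 0 h), the fourth WT_1h (883, and 209 lower), the third WT_1h (213 lower), the first WT_0h (10 against 0 h), the third WT_0h (11 against 0 h) or the third KO_1h library (131). With list place as a replicate block, 1353, 17, 0 and 218 genes were called in the 4 comparisons, and of the named calls it ended those of Ahr (adjusted p = 0.051) and Hk2 (0.055) and no other. The place is no label, and 3 of 4 DKO_1h libraries correlated best with their own place in WT_1h. The same was so for 2 of 4 libraries of DKO_0h against WT_0h and for 0 of 4 of DKO_2h against WT_2h. Chosen after seeing the data, a model of the 1 h libraries alone called 1005 at 1 h and 141 against KO_1h, and with the replicate block 1390 and 243. That block ended the named calls of Csf2 (adjusted p = 0.061), Lrrc32 (0.085), Edc3 (0.073), Cd247 (0.059) and Gzma (0.082), and Rc3h2 passed under it (0.043). The sign turned for 4 genes near 0, none called: Nfkbid was -0.037 (deposited scaling), -0.018 (total reads) and from -0.017 to 0.125 without 1 library. Rel was -0.039, -0.020 and from -0.052 to 0.141 under the same. Nfkbia was 0.013 with no filter and from -0.13 to 0.047 without 1 library, and Nfkbiz from -0.241 to 0.036 without 1 library. The planned count models were not run. Read depth limits genes of few reads, such as Il6.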
